A study of Rattus norvegicus with 192 samples.

Results

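The prefrontal cortex (PFC) mRNA of lean rats fed whole egg was compared with that of lean rats fed casein, over all genes of one deposited count table. Of the 192 libraries of the series, 12 belong here, 6 from whole egg rats and 6 from casein rats, and each is the PFC of another rat. The animals were male lean controls of the Zucker Diabetic Fatty (ZDF) strain. The paper gives these controls as fa/+, heterozygous for the fa mutation of the leptin receptor. They arrived at 6 wk of age and ate either diet for 8 wk. Both diets held 20% protein by weight, from dried whole egg or from casein, and corn oil was added to the casein diet to bring its lipid up to that of egg. Rats were housed in pairs, and which rats shared a cage is not analysed here. Genotype was taken from the column names of the table, which call all 12 rats lean, while the strain in the sample labels reads ZDF for 6 of them, 3 in each diet.

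The libraries were made with the QuantSeq kit, which reads the 3' end of polyadenylated transcripts, so that each transcript gives about one tag whatever its length. The table held 11379 genes, none of them at 0 in more than 1 library. Casein libraries held 2664102 to 4600987 reads in total and whole egg libraries 2015473 to 4128858, with a mean of 3715649 ± 700246 in casein and 2887783 ± 767071 in whole egg (SD, n = 6 each). The difference of the means, -827866 reads with whole egg, did not pass an exact two-sided permutation test over the 924 splits (p = 0.0931), although leaving out one rat at a time gave p-values of 0.0281 to 0.180, with those under 0.05 found without casein rat 15 and without whole egg rat 21. Values are given as CPM (reads of a gene as a share of the library, with the total scaled by TMM factors), in the order lowest, median and highest of the 6 rats. Gene symbols were known for 480 of the 11379 genes, those listed by the study as changed in one of its tissues, so most classical cortical genes could not be looked up.

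The PFC is the part of the neocortex that serves working memory, planning and control of behaviour. Its neurons depend on astrocytes and oligodendrocytes for metabolites, antioxidant supply and myelin, and since plasma cholesterol hardly crosses the blood-brain barrier, the brain makes its own cholesterol. Egg yolk brings cholesterol, choline, retinoids and lipid-soluble vitamins. The comparison asks whether a diet built on egg moves the expression of any cortical gene in the rats that the column names call lean.

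The tissue label was checked against the marker genes that carry a symbol. The neuronal genes Map1b and Rtn1, which encode a microtubule-associated protein and a reticulon of the endoplasmic reticulum, and Mbp, which encodes myelin basic protein, were abundant in every library. Map1b was at 5522, 6413 and 7557 CPM with casein and 5588, 6340 and 7581 CPM with whole egg. Rtn1 was at 2459, 2675 and 3014 CPM with casein and 2402, 2649 and 3006 CPM with whole egg. Both neuronal genes were at almost the same level in the 2 diets, with log2 fold changes (whole egg against casein) of -0.0041 (SE 0.16, 95% interval -0.34 to 0.33) for Map1b and -0.03 (SE 0.15, -0.33 to 0.28) for Rtn1. Mbp varied far more between rats, from 1675 through a median of 3187 to 6175 CPM in casein and from 1515 through 3192 to 6106 CPM in whole egg, and its medians were again close. The astrocyte gene Ndrg2 was at 545, 726 and 885 CPM with casein and 461, 675 and 860 CPM with whole egg. Lyz2, a lysozyme of macrophages and microglia, was at 29.2, 38.7 and 60.0 CPM with casein and 34.5, 42.5 and 59.1 CPM with whole egg. Of the marker lists, those of glutamatergic neurons, GABAergic neurons, oligodendrocyte precursors, blood, striatum, and olfactory bulb and cerebellum had no member with a symbol. The lists of astrocytes, of oligodendrocytes and myelin, and of cortical layers, mural cells and choroid plexus had 1 member each.

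No gene differed between whole egg and casein at a false discovery rate (FDR) of 5% in edgeR's quasi-likelihood test, which is 0% of the 11379 genes. The smallest adjusted p was 0.999. At an unadjusted p under 0.05 there were 375 genes (3.3% of those tested), 228 higher with whole egg (2%) and 147 lower (1.29%). This split was not stable: it was 101 higher and 214 lower with the log2 total count as a term, a fit added after the data had been seen, 113 and 114 without whole egg rat 13, 172 and 185 without whole egg rat 6, and 148 and 139 with a minimum count of 10. DESeq2 also called no gene and had 421 genes at an unadjusted p under 0.05, and limma-voom with sample weights called none and had 706. The groups of 6 rats were wholly apart for 13 genes, with every whole egg rat above every casein rat for 8 (0.0703%) and below for 5 (0.0439%), and none of these genes has a symbol here. The median log2 fold change of all genes was 0.01.

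**Figure D1:**
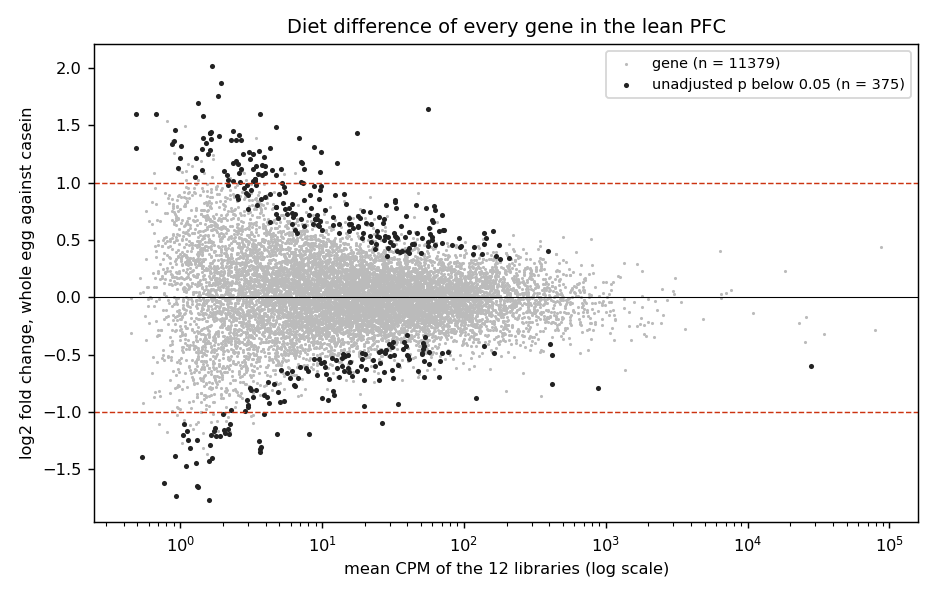
Log2 fold change (whole egg against casein) of each of the 11379 genes plotted against its mean CPM on a log scale. Black points are the 375 genes at an unadjusted p under 0.05, none of which passed an FDR of 5%, dashed lines mark a log2 change of 1 either way, and the spread narrows as the level rises.

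Because a missed threshold does not show equal expression, the 95% interval of each gene's fold change was used to bound the difference that the 12 libraries allow. The interval lay within a log2 change of 1 either way (a doubling or halving is 1 on this scale) for 7754 genes, or 68.1%, and within 0.58 either way, about 1.49-fold, for 2925 genes, or 25.7%. The bound depended on the level of the gene. Among the 1422 genes with a mean of 100 CPM or more, 96.0% had an interval within 1 and 58.2% within 0.58. Among the 5366 genes at 10 to 100 CPM the shares were 91.3% and 38.5%. Among the 4591 genes under 10 CPM they were 32.5% and 0.697%, so for most genes of low level the interval still held a change of 2-fold in at least one direction. The median half-width of the interval was 0.39 on the log2 scale at 100 CPM and over, 0.47 at 10 to 100 CPM and 0.87 under 10 CPM. The biological coefficient of variation common to all genes was 0.304.

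The 8 genes with a symbol and a mean of at least 5 CPM that had the smallest unadjusted p in each direction are given as a description, since they were picked on these values. Ca3, a carbonic anhydrase abundant in muscle and fat, was at 34.0, 42.8 and 62.1 CPM with casein and 47.1, 75.0 and 118 CPM with whole egg. Its groups overlapped, although all 6 whole egg rats stood above the casein median, and its log2 fold change was 0.80 (SE 0.21, interval 0.35 to 1.24). Adipoq, the fat cell hormone adiponectin, was at 3.59, 7.70 and 13.1 CPM with casein and 9.37, 12.7 and 39.7 CPM with whole egg, giving a log2 fold change of 1.17 (SE 0.36). One whole egg rat, number 13, was far above the other rats, and without it the log2 fold change of Adipoq was 0.75. Lpl, lipoprotein lipase, which frees fatty acids from circulating lipoproteins, was at 26.3, 37.5 and 60.1 CPM with casein and 31.0, 63.2 and 110 CPM with whole egg, giving a log2 fold change of 0.78 (SE 0.26). The other 5 genes higher with whole egg were Dnajc18, a DnaJ co-chaperone, at log2 0.61, Timm8a1, a chaperone of mitochondrial protein import, at 0.51, Ddhd1, a phospholipase, at 0.54, Tfrc, the transferrin receptor, at 0.39, and Syne1, a nuclear envelope protein, at 0.32. Only Dnajc18 among these 5 had an interval clear of 0 (0.03 to 1.18).

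In the other direction, Egr1, an immediate-early transcription factor that follows neuronal activity, was at 303, 439 and 633 CPM with casein and 228, 365 and 439 CPM with whole egg. All 6 whole egg rats were below the casein median, the groups overlapped, and the log2 fold change was -0.41 (SE 0.19, unadjusted p = 0.0492, adjusted p = 0.999 in edgeR). Slc30a3, the zinc transporter of glutamatergic synaptic vesicles, was at 172, 267 and 1298 CPM with casein and 130, 211 and 435 CPM with whole egg. Its log2 fold change of -0.86 (SE 0.42) became -0.18 without casein rat 15, whose 1298 CPM stood well above the next value of 487. Ccs, the copper chaperone of superoxide dismutase, was at 18.9, 23.5 and 36.5 CPM with casein and 14.3, 17.1 and 27.4 CPM with whole egg, giving a log2 fold change of -0.45 (SE 0.22). The remaining 5 were Rnaseh2c, a subunit of RNase H2, at log2 -0.57, Slc25a39, a mitochondrial carrier of glutathione, at -0.54, Evl, an actin regulator of the Ena/VASP family, at -0.42, Gng5, a G protein gamma subunit, at -0.66, and Phyhd1, an oxygenase, at -0.58. Among the 8 lower genes, the intervals of Slc30a3 (-1.73 to 0.01), Ccs (-0.91 to 0.0022) and Phyhd1 (-1.18 to 0.02) held 0. Leaving out one rat at a time gave -0.74 to -0.36 for Phyhd1. Some genes known only by identifier had smaller p-values than most of the genes with a symbol described here. ENSRNOG00000033564 and ENSRNOG00000013397 had log2 fold changes of 0.85 and 1.17, and ENSRNOG00000029886 and ENSRNOG00000047321 had -0.79 and -0.76.

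**Figure D2:**
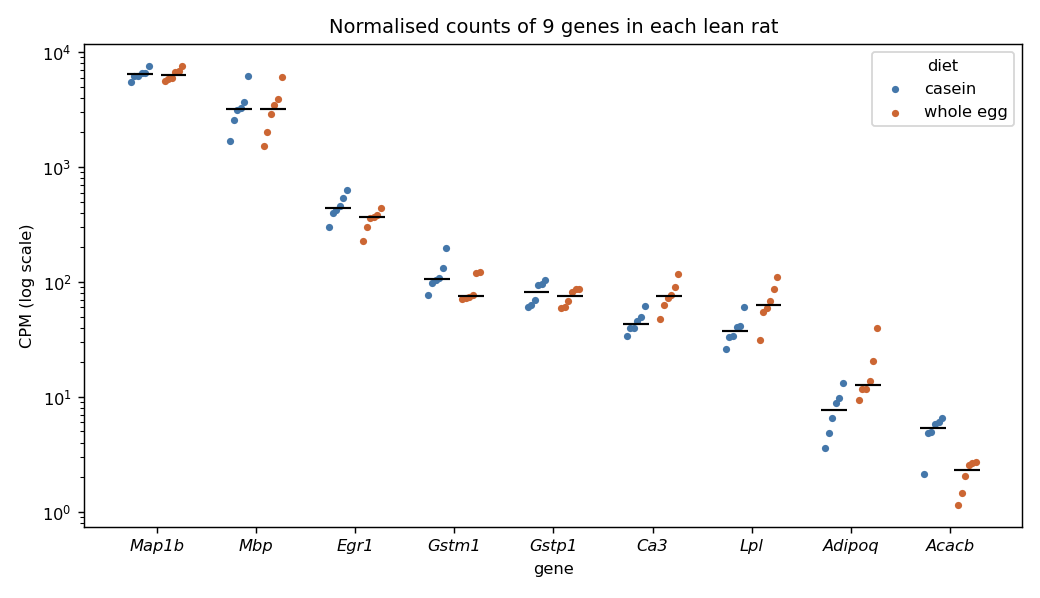
CPM on a log scale for 9 genes in each of the 6 casein rats (blue) and 6 whole egg rats (orange), with the median of each diet as a black bar. Map1b and Mbp have nearly the same median in both diets, and the groups overlap for all 9 genes.

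Ca3, Adipoq and Lpl are far more abundant in fat than in brain, so the genes with a mean CPM in lean adipose tissue at least 100 times that in the lean PFC were looked at together, a list made after the values had been seen. Of the 8437 genes in both tables, 43 met this limit. Of these, 37 were higher with whole egg and 6 lower, where 5904 of all 11379 genes were higher. Their median log2 fold change was 0.43 against 0.01 for all genes. An unadjusted p under 0.05 was found for 8, all of them higher, against 3.3% of all genes. Ca3, Adipoq and Lpl, which prompted the list, and ENSRNOG00000033564, named above for its small p, are among the 43 and the 8. These shares are therefore no independent support for a shift. Fabp4, the fatty acid binding protein of fat cells, was at 10.0, 14.7 and 19.6 CPM with casein and 10.6, 22.7 and 35.3 CPM with whole egg, giving a log2 fold change of 0.52 (SE 0.28). Retn, the hormone resistin, was at 2.15, 4.63 and 6.56 CPM with casein and 3.73, 6.78 and 12.7 CPM with whole egg, giving a log2 fold change of 0.65 (SE 0.35). None of these genes passed an FDR of 5%. At a limit of 50 times, 65 of 89 genes were higher with a median of 0.27, and at 20 times 154 of 254 with a median of 0.08, so the limit of 100 times shows the largest shift of the 3. Without whole egg rat 13 the median of the 43 genes was 0.27.

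The number of reads behind the 43 genes differed less between libraries than the totals did. It was 676, 963 and 1062 reads (lowest, median, highest) in casein libraries and 895, 1105 and 1231 in whole egg libraries, while the totals of the libraries differed by more than 2-fold. As a share they came to 198, 243 and 366 CPM in casein libraries and 259, 374 and 571 CPM in whole egg libraries. Across the 12 libraries no relation of the summed reads to the total count was detected (Pearson's r = -0.20, permutation p = 0.534; Spearman's rho = -0.20, p = 0.526). The summed CPM fell as the total count rose (r = -0.81, permutation p = 0.00075, adjusted over 2 relations 0.00150, and rho = -0.80, permutation p = 0.00274, adjusted 0.00548). CPM has the total as its divisor, so such a fall arises wherever reads do not follow the total. These p-values cannot test for anything beyond that. Without the 2 libraries farthest from the median total, r was -0.77, and within a diet it was -0.52 in casein and -0.87 in whole egg. With the log2 total count as a term in the model, a fit added after the data had been seen, 26 of the 43 genes were higher with whole egg and their median log2 fold change was 0.17. In that fit the log2 fold changes of Ca3, Adipoq and Lpl were 0.57, 0.50 and 0.54. Genes at least 100 times higher in lean kidney than in PFC, 50 in number, had a median log2 fold change of 0.17. Of these, 34 were higher with whole egg and 16 lower, and none had an unadjusted p under 0.05. The median of their summed CPM was 186 with casein and 190 with whole egg, and that of their summed reads was 686 and 529. The part of depth or of RNA from other tissues in these differences was not tested.

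**Figure D3:**
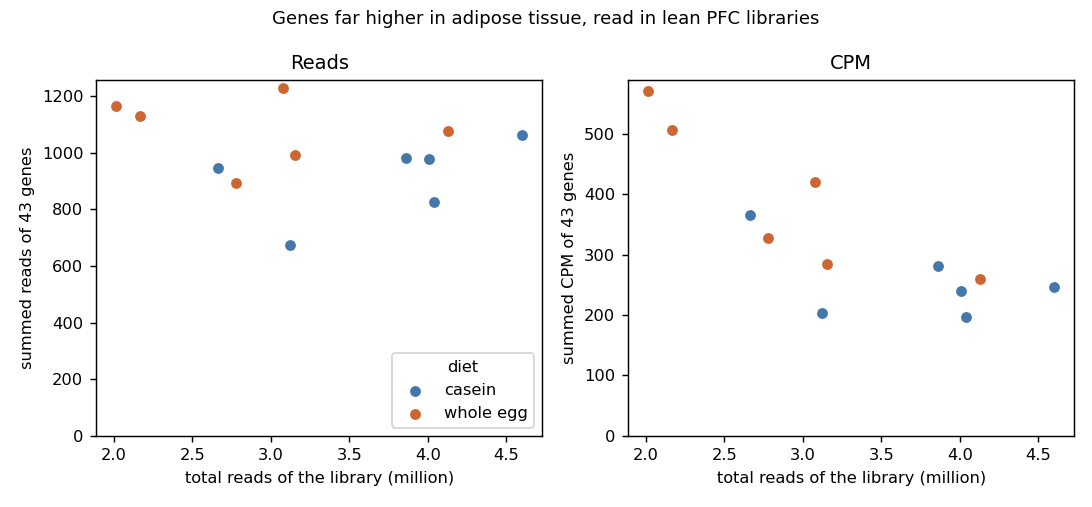
Summed reads (left) and summed CPM (right) of the 43 genes at least 100 times higher in adipose tissue than in PFC, against the total reads of each lean PFC library, with casein libraries in blue and whole egg libraries in orange. Reads lie between 676 and 1231 at every depth, and CPM is highest, at 571 and 507, in the 2 shallowest libraries, both whole egg.

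The glutathione transferases conjugate glutathione to electrophiles and peroxidation products, and 11 of the 23 listed had a symbol match in the table. None passed the test and none had an unadjusted p under 0.05. All 11 had a 95% interval within a log2 change of 1 either way. Gstm1, a cytosolic enzyme of the mu class, was at 77.6, 106 and 199 CPM with casein and 71.0, 75.4 and 123 CPM with whole egg. Its log2 fold change of -0.42 (SE 0.22, interval -0.89 to 0.05) was the lowest of the list, and 4 of the 6 whole egg rats were below the lowest casein rat. Gstp1, the pi class enzyme, was at 61.0, 82.0 and 103 CPM with casein and 59.5, 75.4 and 87.0 CPM with whole egg, giving a log2 fold change of -0.13 (SE 0.18, interval -0.51 to 0.25). The 3 members with the highest CPM were also close between diets, at log2 -0.11 for Gstm7, -0.21 for Gstt3 and -0.05 for Gsta1. Mgst1, a membrane-bound enzyme of the endoplasmic reticulum and mitochondria, was the one member with a positive value, at 0.34 (SE 0.19). Of the genes that supply or use glutathione, 3 of 22 had a symbol and a median log2 fold change of -0.09 (range -0.23 to 0.06). The other antioxidant enzymes, 9 of 30, had a median of -0.06 (-0.45 to 0.04), and their most abundant member Prdx6, a peroxiredoxin that reduces phospholipid peroxides, was at 184, 287 and 333 CPM with casein and 203, 273 and 341 CPM with whole egg.

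Genes of sterol and lipid metabolism showed no call either. Of the 27 genes of cholesterol synthesis and uptake, 11 had a symbol, with a median log2 fold change of -0.02 (range -0.28 to 0.21) and no member at an unadjusted p under 0.05. Srebf2, the transcription factor that drives this pathway, was at 203, 281 and 473 CPM with casein and 198, 261 and 286 CPM with whole egg, giving a log2 fold change of -0.26 (SE 0.19). Hmgcs1, the synthase ahead of the rate-limiting step, was at 99.9, 154 and 164 CPM with casein and 125, 145 and 177 CPM with whole egg, giving a log2 fold change of 0.04 (SE 0.16, interval -0.29 to 0.37). Its interval lay within 0.58 either way. Sc5d, an enzyme of the last steps to cholesterol, had 0.21 (interval -0.09 to 0.52). Sterol transport and turnover (6 of 20) had a median of 0.18 (range -0.13 to 0.44). Its members included Abca2, a lipid transporter of oligodendrocytes, at -0.13, Lipa, the lysosomal acid lipase, at 0.17, and Osbpl9, an oxysterol-binding protein, at 0.44.

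In the list of fatty acid synthesis, desaturation and elongation, 14 of 28 had a symbol, with a median of 0.06 (range -1.25 to 0.52). Acacb, the acetyl-CoA carboxylase of the mitochondrial surface that restrains fatty acid oxidation, was at 2.11, 5.35 and 6.60 CPM with casein and 1.15, 2.30 and 2.69 CPM with whole egg. All 6 whole egg rats were below the casein median, but the lowest casein rat lay within the whole egg range. Its log2 fold change was -1.25 (SE 0.36, interval -2.01 to -0.50, unadjusted p = 0.00256, adjusted p = 0.999 in edgeR). Other members were near 0 or slightly positive, with Fasn, the fatty acid synthase, at -0.03, Dbi, the acyl-CoA binding protein, at 0.25, Acsl3, an acyl-CoA synthetase, at 0.22, and Thrsp, a lipogenic factor, at 0.30. The list of choline, phospholipid and one-carbon metabolism (6 of 32) had a median of -0.04 (range -0.28 to 0.31), with Gcsh, a subunit of the glycine cleavage system, at -0.21 and Phgdh, the entry enzyme of serine synthesis, at -0.28. The retinoid and vitamin D list (4 of 21) had a median of -0.08 (range -0.37 to 0.99). In it, Crym, a thyroid hormone binding protein, was at -0.14, Cyp26b1, which degrades retinoic acid, at -0.37 (SE 0.21) and Rarb, a retinoic acid receptor read at 0.386 to 10.6 CPM, at 0.99 (SE 0.56, interval -0.19 to 2.16).

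No member of the remaining lists passed the test either. Circadian clock genes (4 of 21) had a median log2 fold change of -0.09, with the clock output gene Dbp at -0.14 and Clock, which encodes the transcription factor at the core of the clock, at 0.23. Immediate-early genes (3 of 29) had a median of -0.05, of which Egr1 was described above and Nr4a2, an orphan nuclear receptor, stood at 0.02. Genes of insulin, leptin and glucose uptake (3 of 22) had a median of -0.06. Lepr, the leptin receptor that carries the fa mutation, was barely read, at 0.861, 2.82 and 6.18 CPM with casein and 0.979, 1.85 and 2.69 CPM with whole egg, a log2 fold change of -0.72 with an interval of -1.67 to 0.22. Slc2a4, the insulin-responsive glucose transporter, was as low, at 0.287 to 1.91 CPM with casein and 0.240 to 4.44 CPM with whole egg, giving a log2 fold change of 0.89 (SE 0.55). Interferon and inflammation genes (11 of 25) had a median of -0.12 (range -0.68 to 0.71), with Ifi27, an interferon-induced gene, at -0.20 and Psmb9, a subunit of the immunoproteasome, at 0.71. Genes of endoplasmic reticulum and heat stress (3 of 19) had a median of -0.07, with Sesn2, a stress-induced sestrin, at -0.34.

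Mitochondrially encoded transcripts (3 of 30) had a median of -0.22. COX3, a subunit of cytochrome c oxidase, was at 17047, 24848 and 38073 CPM with casein and 17222, 21496 and 25253 CPM with whole egg, giving a log2 fold change of -0.22 (SE 0.21). The mitochondrial transcript AY172581.14 was at 10.8, 16.0 and 42.2 CPM with casein and 13.2, 24.7 and 60.8 CPM with whole egg, giving a log2 fold change of 0.50 (SE 0.40). Another, ENSRNOG00000033932, was at 1.51, 5.88 and 32.0 CPM with casein and 3.73, 5.68 and 16.4 CPM with whole egg. Its log2 fold change of -0.41 (SE 0.59) became 0.39 without casein rat 15. Among markers, Lyz2 had a log2 fold change of 0.07 (SE 0.22). The list of meninges and fibroblasts (4 of 13) had a median of 0.18 (range -0.12 to 0.49). In it, Mgp, a matrix protein, was at -0.12 and Col3a1, a collagen, at 0.05. Its highest member was Fbn1, fibrillin, at 0.49, which is also among the 43 genes high in adipose tissue. The list of liver, kidney and fat genes (6 of 11) was, among lists with at least 3 measured members, the one with every member positive, at a median of 0.47, and its summed level was 41.9, 61.4 and 70.6 CPM with casein and 57.2, 86.3 and 110 CPM with whole egg.

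**Figure D4:**
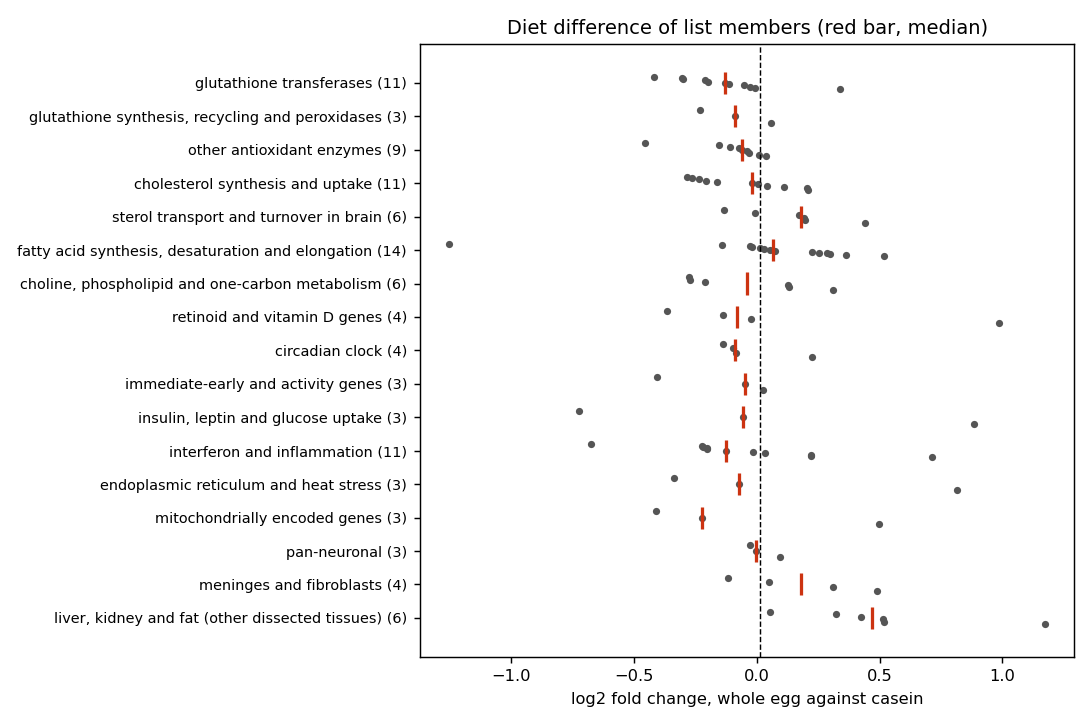
Log2 fold change (whole egg against casein) of every measured member of each list with at least 3 measured members (number in brackets), with the list median as a red bar and the median of all genes, 0.01, as a dashed line. List medians lie between -0.22 and 0.47, and the list of genes of other dissected tissues stands farthest from the dashed line.

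Principal components of log2 CPM asked whether the main axes of variation between rats run along diet. The first 3 components held 23.1%, 18.9% and 11.2% of the variance. Scores on component 1 averaged 1.24 ± 29.0 in casein rats and -1.24 ± 28.3 in whole egg rats (SD), and component 2 gave -10.9 ± 22.8 and 10.9 ± 23.3. No component differed by diet in an exact two-sided permutation test, with adjusted p-values over the 3 of 0.887, 0.422 and 0.887. Component 1 differed more by the strain in the sample labels, without passing 0.05 after adjustment. Scores were 4.39 to 46.1 in the 6 rats labelled Lean and -37.2 to 30.2 in the 6 labelled ZDF, where whole egg rat 2 was the one positive score (exact permutation p = 0.0238, adjusted over the 3 components 0.0714, a comparison added after the scores had been seen). The genes with a symbol and the largest loadings on component 1 were Snx8, Lgals9, Coq7, AY172581.14 and Crem on the side of the ZDF label and Tmem219, Slc30a3, Fmo1, Sh3bp1 and Slc25a30 on the other. Crem, a cAMP-responsive transcription factor, ranged from 5.40 to 28.9 CPM over the 12 rats, and Lgals9, a galectin, from 7.16 to 38.8 CPM.

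**Figure D5:**
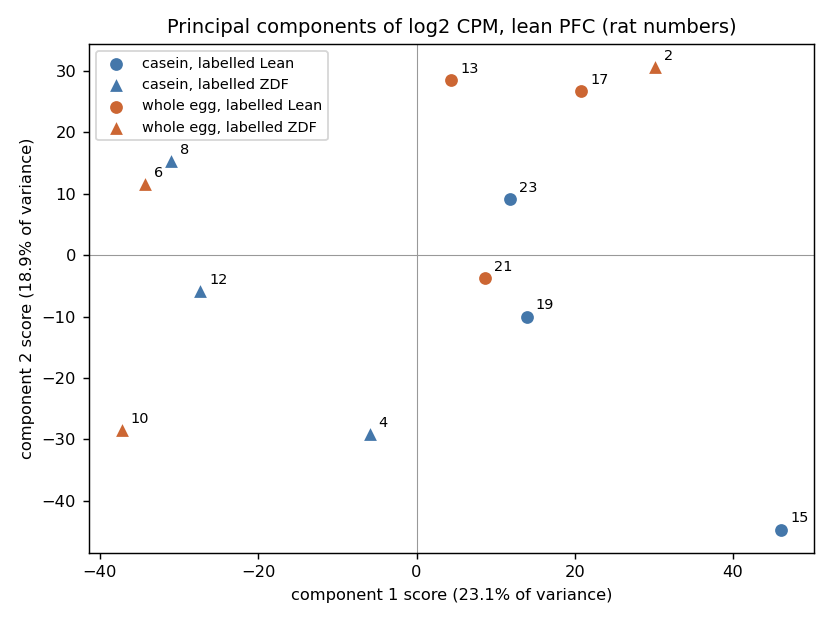
Scores of the 12 lean PFC libraries on components 1 and 2 of log2 CPM, with diet as colour, the strain in the sample labels as symbol and rat numbers beside the points. Both diets spread over the whole of component 1, and 5 of the 6 rats labelled ZDF lie left of 0 while all 6 labelled Lean lie right of it.

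Because the sample labels and the column names disagree on 6 of these rats, the strain label was also fitted beside diet in the same 12 libraries. In edgeR no gene passed an FDR of 5% for the label (0% of 11379), with a smallest adjusted p of 0.112, but 1761 genes, or 15.5%, had an unadjusted p under 0.05, against 3.3% for diet. DESeq2 called 174 genes for the label and limma-voom with sample weights 579, of which 165 were shared. Leaving out one rat at a time, edgeR called 0 to 2 genes without any of the other 11 rats and 824 without whole egg rat 2, among them 171 of the 174 called by DESeq2. That rat is the one whose score on component 1 went against its label, so the 824 calls are no independent support for a difference by label. Crem was at 5.40, 8.39 and 12.7 CPM in rats labelled Lean and 10.7, 20.2 and 28.9 CPM in rats labelled ZDF, a log2 difference of 1.15 (SE 0.27, adjusted p = 0.112 in edgeR and 0.0166 in DESeq2). Prom1, a membrane glycoprotein, was at 8.81, 11.7 and 17.2 CPM in rats labelled Lean and 17.0, 20.2 and 27.4 CPM in rats labelled ZDF, a log2 difference of 0.81 (SE 0.21). The groups overlapped only slightly for both genes. Of the 9 genes with a symbol called by DESeq2, AY172581.14, Lgals9, Trio, Alyref and Ppm1b were also higher under the ZDF label, and Tmem219 and Atp6v1h were lower. In all, 120 of the DESeq2 calls were higher under the ZDF label and 54 lower. The labels give rats 1 to 12 as ZDF and 13 to 24 as Lean, so the label cannot be told apart from anything else that goes with the animal numbers. With the label as a term, no gene was called for diet, and 438 had an unadjusted p under 0.05. Within the 6 rats labelled Lean and within the 6 labelled ZDF no gene was called for diet, with 730 and 141 genes at an unadjusted p under 0.05.

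The 2 assignments of genotype, the column name and the strain label, were fitted together over the 24 PFC libraries of both genotypes. In edgeR the column name had 1 call among 8289 genes (0.0121%), ENSRNOG00000011815, higher in rats whose column reads ZDF by 1.35 on the log2 scale (SE 0.17, adjusted p = 3.59e-05), and the label had none (0%). At an unadjusted p under 0.05 there were 226 genes for the column name and 984 for the label, and DESeq2 called 3 and 27. In adipose tissue of the same rats edgeR called 40 genes for the column name (0.541%) and none for the label (0%), and in kidney 1 (0.0147%) and none (0%). DESeq2 called 128 genes for the column name and 58 for the label in adipose tissue, and 3 and 29 in kidney, where the order was turned round. At an unadjusted p under 0.05 the label had more genes in both, 792 against 684 in adipose tissue and 619 against 248 in kidney. The difference between the assignments was not tested.

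The diet effect of the lean PFC was last compared with that of the ZDF PFC through the interaction term over the 24 libraries. In edgeR no gene of 8289 passed an FDR of 5% (0%), the smallest adjusted p was 0.0560, and 826 genes (9.97%) had an unadjusted p under 0.05. DESeq2 called 44 genes and limma-voom none. The ZDF table held 2 casein libraries of very low depth, at 67861 and 164795 reads, where the other 10 had 1293843 to 7080897. The strain label was also uneven in the ZDF table, where 2 of 6 casein rats and 4 of 6 whole egg rats are labelled Lean, and the interaction above leaves it out. With the label as a term, a fit added after the data had been seen, edgeR called no gene, with a smallest adjusted p of 0.400 and 770 genes at an unadjusted p under 0.05, and DESeq2 called 11. Without the 2 shallow libraries, DESeq2 called none and the smallest adjusted p in edgeR was 0.482. The 3 genes with the smallest p were ENSRNOG00000032274, AY172581.14 and ENSRNOG00000029171, each with an adjusted p of 0.0560. AY172581.14 was at 19.8, 200 and 2094 CPM in ZDF casein rats against 13.8, 21.9 and 25.7 CPM in ZDF whole egg rats, while in the same fit the lean rats were at 11.8, 17.6 and 44.9 CPM with casein and 14.2, 27.0 and 65.2 CPM with whole egg. Ca3, at log2 0.79 in the lean PFC of this fit, had 35.6, 140 and 1790 CPM in ZDF casein rats and an interaction of -3.68 (SE 0.88, adjusted p = 0.235). Of the 43 genes high in adipose tissue, 31 were in the ZDF table, and they took 397 and 279 reads in the 2 shallow libraries, which is 0.585% and 0.169% of their totals, and 0.0165% to 0.0890% in the other 10. Egr1 had an interaction of 1.16 (SE 0.38, adjusted p = 0.474), with 141, 361 and 666 CPM in ZDF casein rats and 384, 593 and 958 CPM in ZDF whole egg rats. The highest ZDF casein values of AY172581.14 and Ca3, and the lowest of Egr1, came from the 2 shallow libraries. Interactions of single genes without these libraries are not given here.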

How the data were processed

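PFC mRNA of 12 lean rats (6 whole egg, 6 casein) was measured, with the lean kidney and adipose tables and the ZDF tables of all 3 tissues as references. The authors made QuantSeq libraries, trimmed the reads with BBDuk, mapped them by STAR to rat build RNO_6.0 with Ensembl release 94, counted reads per gene and filtered genes on the number of samples without a read; their tool versions were not stated. The values deposited are whole-number counts that were not normalised. Deposited columns of the authors' own comparisons (fold changes and p-values) were not used. Symbols came from the study's table of changed genes.

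The two-sided quasi-likelihood test of edgeR 4.0.16 under R 4.3.3 was run on these counts with TMM factors and default dispersions, on every gene of the table, and p-values were adjusted by Benjamini and Hochberg. SE is the log2 fold change over the root of F. Principal components used log2 CPM with a prior count of 2, centred and not scaled. Alternatives were DESeq2 1.42.0 with its own or TMM factors, upper quartile or RLE factors, a minimum count of 10, limma-voom (limma 3.58.1) with sample weights, robust dispersions, the strain label as a term, either label alone, an FDR of 10% and leaving out each rat. Chosen after seeing the data were the total count as a term, the strain label as a term of the interaction and leaving out 2 shallow ZDF libraries. The tests were tried on simulated data. The gene lists and the comparison were chosen with earlier results of these data known. Named were the 8 genes of smallest p each way with a mean of at least 5 CPM, up to 3 of the highest and the smallest-p member of each list (some left out), 5 genes the study discusses, the 3 smallest-p interactions, 5 loadings each way on component 1, and called genes (for DESeq2 only those with a symbol). Retn, Thrsp and Mgst1 were added after their values were seen. Some genes are not reported here.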

Additional observations from a re-analysis of the deposited data

Results flagged for a closer look

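Among the 126 groups of 6 rats tested for one value far from the rest (62 genes and the total count, in 2 diets), 10 had such a value. Of these, 2 were in casein rat 15, at 1298 CPM of Slc30a3 (the next rat had 487) and 32.0 CPM of ENSRNOG00000033932 (next 12.6). casein rat 8 had 24.7 CPM of Phyhd1 (next 13.2) and 17.2 CPM of Fbn1 (next 10.8). casein rat 4 had 6.63 CPM of Rarb (next 2.72). Among whole egg rats, rat 10 had 27.4 CPM of Ccs (next 19.1) and 260.0 CPM of Fasn (next 134), rat 13 had 39.7 CPM of Adipoq (next 20.6), rat 2 had 17.9 CPM of Ddhd1 (next 10.8) and rat 6 had 16.4 CPM of ENSRNOG00000033932 (next 7.61). What set these values apart was not tested.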

How the results depend on the processing

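No gene passed an FDR of 5% for diet under any alternative, an FDR of 10% included, and leaving out each rat gave 0 to 0 calls with 227 to 751 genes at an unadjusted p under 0.05 (227 without whole egg rat 13, 655 without casein rat 8, 751 without whole egg rat 10). Genes with an interval within log2 0.58 numbered 2118 to 3367 without one rat and 1598 with the total count as a term. The strain label had 0 to 824 calls without one rat (824 without whole egg rat 2, 2 and 1 without casein rats 4 and 8), 174 in DESeq2 and 579 in limma-voom. The interaction had 0 to 36 calls without one rat, the 36 without ZDF casein rat 24, with 5 and 3 without ZDF casein rats 14 and 1, and 4 and 3 without lean casein rat 8 and lean whole egg rat 21, 44 in DESeq2 and 11 in DESeq2 with the strain label as a term; the column name had 3 and the label 27 calls in DESeq2. The depth difference ranged from -1076081 to -650799 reads without one rat; its p fell under 0.05 without casein rat 15 or whole egg rat 21.

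No named gene was called for diet, and most that changed sign lay near 0. In rats labelled ZDF, Abca2 was at 0.021, Cyp26b1 at 0.094, Nr4a2 at -0.43, Ifi27 at 0.075 and ENSRNOG00000033932 at 0.29. In rats labelled Lean, Hmgcs1 was at -0.022, Fasn at 0.058, Map1b at 0.0051, Ndrg2 at 0.11, Lyz2 at -0.13 and Prdx6 at 0.085. With the total count as a term, Gstm7 was at 0.00090, Hmgcs1 at -0.0054, Abca2 at 0.13, Fasn at 0.26, Map1b at 0.022, Mbp at 0.12, Ndrg2 at 0.044 and Prdx6 at 0.11. In limma-voom, ENSRNOG00000033932 was at 0.67, Map1b at 0.060 and Rtn1 at 0.0026, and with upper quartile factors Map1b was at 0.0082. Without one rat the ranges were -0.12 to 0.025 for Gsta1, -0.074 to 0.066 for Hmgcs1, -0.36 to 0.11 for Fasn, -0.35 to 0.0069 for Dbp, -0.16 to 0.17 for Nr4a2, -0.86 to 0.39 for ENSRNOG00000033932, -0.057 to 0.046 for Map1b, -0.066 to 0.0054 for Rtn1, -0.31 to 0.21 for Mbp and -0.032 to 0.19 for Lyz2. The cause of these changes was not tested.

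No paired analysis was possible because the 2 diets hold different rats, so that animal numbers pair no libraries. Depth limits the genes under 10 CPM. With 6 rats a diet, the unadjusted interval of a gene at 100 CPM and over had a median half-width of about 1.31-fold. Smaller shifts mostly cannot be told from 0 even for a gene tested alone. Adjustment over all genes is stricter, and the smallest shift it could detect was not tested. Egr1, with a log2 fold change of -0.41 and an unadjusted interval clear of 0, had an adjusted p of 0.999 in edgeR.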
